A study of Mus musculus with 38 samples.

Results

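The intestinal stem cell and Wnt target genes Lgr5, Ascl2, Smoc2, Olfm4, Lrig1, Sox9, Ephb2, Axin2, Rnf43 and Znrf3 were followed in the intestinal epithelium of mice with and without epithelial hexokinase 2 during dextran sodium sulfate (DSS) colitis. They were taken by gene symbol, as 10 of the 46078 genes in the count files. The rule used symbols and no measured value, but earlier results of these data were known when the members were chosen. All 10 were found.

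The intestinal lining is renewed from stem cells at the crypt base. Wnt ligands from the niche bind Frizzled receptors with LRP coreceptors, the destruction complex that contains axin is inactivated, and β-catenin enters the nucleus, where it acts with TCF/LEF factors on target genes. Lgr5 is a receptor for R-spondins, which strengthen the Wnt signal and whose action removes the ubiquitin ligases Rnf43 and Znrf3 from the signal path. Lgr5 and Ascl2 mark the cycling crypt base columnar cells, and Axin2, Rnf43 and Znrf3 are targets of the pathway that in turn restrain it.

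RNA was sequenced from isolated intestinal epithelial cells of 38 C57BL/6 mice, while the series text speaks of colon tissue. Mice labelled Hk2dIEC carried floxed Hk2 and Cre recombinase driven by the Villin promoter, which is active throughout the intestinal epithelium, and are called KO here. Their littermates with floxed Hk2 and no Cre are called WT. Untreated mice (day 0) numbered 4 WT and 5 KO. Mice that had received 1.5% DSS in drinking water for 3 days numbered 7 WT and 8 KO, and those at day 7 numbered 7 WT and 7 KO. The treated mice were male, 10 to 12 weeks old and co-housed across genotypes. The age of the untreated mice is not stated with each sample, and the labels give 9 to 11 weeks and 86 to 92 weeks for basal studies. Each library is named below as in the labels, by day, genotype and the number of its mouse (d7_WT_356).

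The libraries held 10.5 M to 60.6 M counts (median 43.2 M). Day 0 libraries carry another library prefix in their files than those of days 3 and 7 and were shallower (10.5 M to 44.9 M), so DSS and library series cannot be told apart in comparisons with day 0. Hk2, the deleted gene, measured 33.1 to 118 CPM (counts scaled to library size, by TMM factors) in the KO and 254 to 449 CPM in the WT libraries of day 0, where it was called lower in KO (-2.20, SE 0.30, adjusted p = 0.0331). It was not called at day 3 (-0.27, SE 0.33, adjusted p = 0.802; 68.4 to 435 CPM in KO) or at day 7 (-1.25, SE 0.30, adjusted p = 0.291; 56.1 to 268 CPM in KO and 228 to 611 CPM in WT), so no call shows the deletion on the days of DSS. At day 3 the library labelled d3_KO_345 stood at 435 CPM of Hk2, above all 7 WT libraries (97.0 to 221 CPM), which goes against its label. The 9 epithelial markers were detected in every library, with a summed level of 9410 to 18300 CPM. The summed level of 4 neutrophil markers was at most 0.984 CPM in the WT and 33.0 CPM in the KO libraries of day 3, and 68.8 to 726 CPM and 29.8 to 1250 CPM at day 7. In such bulk samples, fewer cells of a type and less RNA per cell cannot be told apart.

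The promoters of Ascl2 and Axin2 are shown because these members were low in the same libraries of day 7. RefSeq promoter windows on GRCm38.p6 matched 6 of the 10 members; Lgr5, Smoc2, Sox9 and Znrf3 had no entry. The 250 bases before each start site are printed 5′ to 3′ on the strand of the gene, at chr7:142969265-142969514 (minus strand) for Ascl2 and chr11:108920099-108920348 (plus strand) for Axin2. Capitals mark the CCAAT box and the GC box GGGCGG, either of them on any strand.
Ascl2: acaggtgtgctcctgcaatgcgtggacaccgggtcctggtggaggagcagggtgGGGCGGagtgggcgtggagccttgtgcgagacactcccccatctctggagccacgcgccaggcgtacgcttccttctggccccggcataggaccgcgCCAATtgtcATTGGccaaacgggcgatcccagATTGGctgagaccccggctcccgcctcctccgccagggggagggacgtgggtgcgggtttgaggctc
Axin2: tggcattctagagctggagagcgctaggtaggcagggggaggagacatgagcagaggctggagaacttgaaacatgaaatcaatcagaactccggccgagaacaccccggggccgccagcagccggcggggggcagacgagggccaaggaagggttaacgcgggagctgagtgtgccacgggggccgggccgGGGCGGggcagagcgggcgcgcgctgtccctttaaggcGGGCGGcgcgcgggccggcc
The Ascl2 window held 3 CCAAT boxes, within 99 bases of the start site, and 1 GC box. The Axin2 window held 2 GC boxes and no box of the other kind. CCAAT was found in 33.8% and the GC box in 32.7% of 32851 mouse windows of this length. The TCF/LEF core, taken as CTTTGAA or with its final AA replaced by AT, by TA or by TT, was searched on both strands and was in 14.8% of all windows and in 0 of the 7 windows of the members, of which Rnf43 had 2. That absence says only that these letters are not in these windows.

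Per kilobase of annotated exon length, Lrig1, a negative regulator of growth factor receptors, had the highest or joint highest median level of the members in all 6 groups, with 15.9 to 35 CPM per kb. Sox9, a transcription factor of the crypt base, reached 21.6 CPM per kb in WT and 21.1 CPM per kb in KO at day 3, beside 25.6 and 21.1 CPM per kb for Lrig1. Ephb2, the receptor that positions cells along the crypt, was at 7.62 to 9.22 CPM per kb. Smoc2 ranked second at day 0, with 11 CPM per kb in WT and 9.40 in KO, and lay below Ephb2 at days 3 and 7. Lgr5 lay near the bottom, with medians of 0.358 to 0.684 CPM per kb in 5 groups and 0.0442 CPM per kb in WT at day 7. Olfm4, a stem cell marker of the small intestine that mouse colon largely lacks, was at or below 0.380 CPM per kb in every group, with 508 counts over all 38 libraries and no count in 5 of them.

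**Figure D1:**
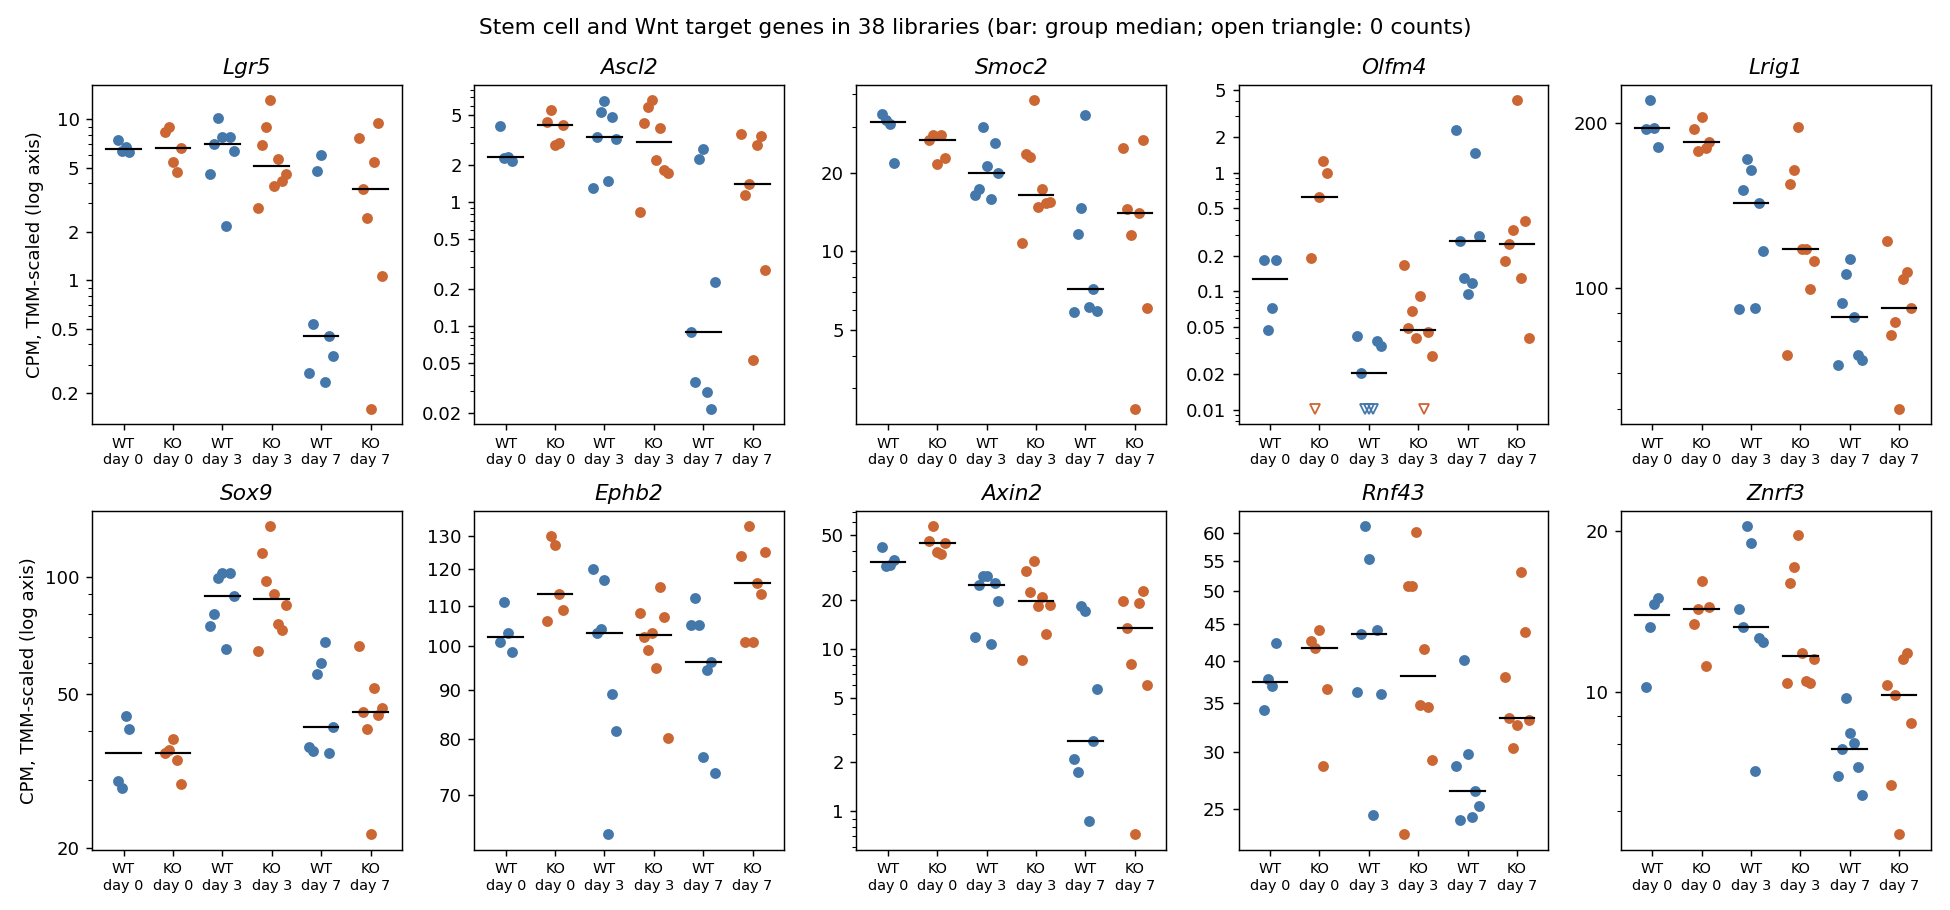
CPM on log axes (y) for each of the 10 genes in each of the 38 libraries, by genotype and day (x); blue points are WT, orange points KO, black bars group medians, and open triangles libraries with 0 counts. At day 7, Lgr5 in WT lies at 0.234 to 0.533 CPM in 5 libraries and at 4.80 and 5.97 CPM in the other two.

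Lgr5 (ENSMUSG00000020140, chr10:115450311-115587780, minus strand, GRCm38) split the day 7 libraries. In untreated mice it measured 7.39, 6.33, 6.74 and 6.28 CPM in the 4 WT libraries and 8.34, 8.92, 5.43, 4.71 and 6.65 CPM in the 5 KO libraries, and the genotypes overlapped. At day 3 the lowest, median and highest values were 2.19, 7.02 and 10.2 CPM in WT and 2.81, 5.14 and 13.1 CPM in KO. At day 7 it was 0.267 CPM in d7_WT_356, 0.533 in d7_WT_361, 4.80 in d7_WT_370, 5.97 in d7_WT_386, 0.234 in d7_WT_393, 0.453 in d7_WT_419 and 0.337 in d7_WT_431. In KO at day 7 it was 7.67 CPM in d7_KO_366, 3.68 in d7_KO_367, 2.44 in d7_KO_368, 0.160 in d7_KO_420, 5.41 in d7_KO_421, 9.53 in d7_KO_422 and 1.07 in d7_KO_423. So 5 of 7 WT libraries and 1 of 7 KO libraries of day 7 lay below 1 CPM, a level that no library of day 0 or day 3 had.

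Ascl2 (ENSMUSG00000009248, chr7:142966822-142969264, minus strand), the transcription factor that works with Lgr5 in crypt base stem cells, was low in the same 6 libraries and in d7_KO_423. Its day 7 values in WT were 0.0890, 0.0355, 2.21, 2.68, 0.0292, 0.0216 and 0.225 CPM in the libraries in the order just given. In KO, in the order given for Lgr5, they were 3.54, 1.14, 1.41, 0.0534, 2.90, 3.41 and 0.282 CPM. The 4 values below 0.06 CPM rest on 1 or 2 counts, under the 3 counts that were taken as the floor of detection, and give only an upper limit to the level. At day 3 Ascl2 ranged from 1.30 through a median of 3.36 to 6.52 CPM in WT and from 0.831 through 3.05 to 6.61 CPM in KO. At day 0 it was 4.12, 2.27, 2.32 and 2.15 CPM in WT and 4.46, 5.51, 2.87, 2.98 and 4.17 CPM in KO.

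Smoc2 (ENSMUSG00000023886, chr17:14279506-14404790, plus strand), a secreted matrix protein enriched in Lgr5 cells, was lower in the 5 WT libraries low in Lgr5 than in the other two, without a clear gap. In WT at day 7 it was 5.89, 11.7, 14.7, 33.3, 6.13, 7.19 and 5.94 CPM in the same order, and d7_WT_386 stood above all 7 WT libraries of day 3 (15.8 to 29.9 CPM). In KO at day 7 it was 24.8, 14.5, 11.6, 2.51, 14, 26.6 and 6.10 CPM, with d7_KO_420 the lowest of all 38 libraries.

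Axin2 (ENSMUSG00000000142, chr11:108920349-108950783, plus strand), the feedback scaffold of the destruction complex and a general Wnt target, had lower medians at each later day. The 4 WT libraries of day 0 held 42.4, 32.2, 32.9 and 35.2 CPM, above all 7 of day 3 (10.7 to 28.2 CPM, median 24.6). The 5 KO libraries of day 0 held 46, 57, 39.3, 38.3 and 44.9 CPM, above all 8 of day 3 (8.48 to 34.6 CPM, median 19.8). At day 7 the WT values were 2.11, 1.74, 18.4, 17.2, 0.876, 2.70 and 5.64 CPM and the KO values 19.8, 13.5, 8.10, 0.721, 19.1, 22.6 and 6.02 CPM. The 5 WT libraries low in Lgr5 were the 5 lowest WT libraries in Axin2, and d7_KO_420 was the lowest KO library.

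Of the ligases that remove Wnt receptors, Rnf43 (ENSMUSG00000034177, chr11:87662722-87735539, plus strand) was at 24.2 to 40.2 CPM in WT at day 7 (median 26.5) against 24.6 to 61.4 CPM at day 3 (median 43.6). In KO it was at 30.4 to 53 CPM at day 7 (median 33.4) and 23.1 to 60.3 CPM at day 3 (median 38.2). Znrf3 (ENSMUSG00000041961, chr11:5276324-5444847, minus strand) was at 6.41 to 9.73 CPM in WT at day 7 (median 7.84) against 7.13 to 20.4 CPM at day 3 (median 13.2). In KO it was at 5.42 to 11.8 CPM (median 9.88) against 10.4 to 19.6 CPM (median 11.6). The days overlapped for each of the ligases in each genotype.

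Sox9 (ENSMUSG00000000567, chr11:112782224-112787760, plus strand) rose and fell. In WT it was 29.8, 28.6, 43.9 and 40.5 CPM at day 0, then 65.2 to 102 CPM at day 3 (median 89.4) and 35.1 to 67.9 CPM at day 7 (median 41.1). In KO it was 35.1, 35.8, 38.1, 33.7 and 29.3 CPM at day 0, then 64.3 to 135 CPM at day 3 (median 87.4) and 21.7 to 66.3 CPM at day 7 (median 44.8). In each genotype every library of day 3 lay above every library of day 0.

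Lrig1 (ENSMUSG00000030029, chr6:94604529-94700158, minus strand) had lower medians at each later day. In WT it was 195, 220, 196 and 181 CPM at day 0, 91.5 to 172 CPM at day 3 (median 143) and 72.3 to 113 CPM at day 7 (median 88.6). In KO it was 195, 178, 205, 180 and 185 CPM at day 0, 75.5 to 197 CPM at day 3 (median 118) and 60.2 to 122 CPM at day 7 (median 91.9). Lrig1 overlaps Slc25a26 on the other strand, and per the file headers counting did not use strand and left out reads that fell on more than 1 gene.

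Ephb2 (ENSMUSG00000028664, chr4:136647539-136835988, minus strand) had similar medians in all groups. The medians were 102 CPM in WT and 113 CPM in KO at day 0, 103 and 102 CPM at day 3, and 96.1 and 116 CPM at day 7, and the groups overlapped throughout. In WT libraries low in Lgr5 at day 7 it read 105, 112, 94.5, 96.1 and 73.8 CPM, and in those at 4.80 and 5.97 CPM of Lgr5 it read 105 and 76.7 CPM. d7_KO_420 held 101 CPM.

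Olfm4 (ENSMUSG00000022026, chr14:80000302-80021930, plus strand) had its highest values in 3 of the libraries low in Lgr5. The highest values of all libraries were 4.06 CPM in d7_KO_420, 2.29 in d7_WT_356 and 1.47 in d7_WT_419, all of day 7. Every WT library of day 7 (0.0940 to 2.29 CPM) lay above every WT library of day 3 (0 to 0.0419 CPM), where no library held more than 2 counts. These 3 were also the libraries with the highest S100a9, a neutrophil gene, at 714, 344 and 410 CPM, where the other 11 libraries of day 7 had 13.3 to 97.2 CPM. Olfm4 is also known as a gene of a neutrophil subset, and the part of neutrophils in its level was not tested.

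The change from day 3 to day 7 was tested with edgeR's quasi-likelihood test, with p-values adjusted by Benjamini-Hochberg over all genes tested and called under 0.05. In WT, 4 of the 9 members tested fell and none rose, against 19.3% of 15541 genes called in either direction and 8.70% called lower. The median change of the 9 members was -0.88 on the log2 scale against 0.01 for all genes. Sox9 fell by 0.90 (SE 0.17, adjusted p = 0.00179), which is 1.87-fold, and Znrf3 by 0.88 (SE 0.18, adjusted p = 0.00363), which is 1.84-fold. Rnf43 fell by 0.62 (SE 0.17, adjusted p = 0.0214) and Lrig1 by 0.60 (SE 0.16, adjusted p = 0.0166). Ascl2 had an estimate of -2.38 (SE 0.87, adjusted p = 0.0675), Lgr5 of -1.91 (SE 0.71, adjusted p = 0.0720), Axin2 of -1.63 (SE 0.58, adjusted p = 0.0615) and Smoc2 of -0.81 (SE 0.36, adjusted p = 0.134), none of them called. So the estimates of Ascl2, Lgr5 and Axin2 were larger than those of the called members, with larger SE. Ephb2 was at -0.05 (SE 0.13, adjusted p = 0.825), with a 95% interval of -0.31 to 0.21. Olfm4 was below the level needed for testing. It was tested and called higher only when all libraries were fitted together (4.80, SE 0.99, adjusted p = 0.000448) or the filter was dropped (4.79, SE 0.87, adjusted p = 0.00115), and likewise in KO (3.48, SE 0.82, adjusted p = 0.00205, and 3.42, SE 0.85, adjusted p = 0.0122). The size of these estimates rests on day 3 counts at or near the floor.

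The calls of Sox9, Znrf3 and Lrig1 in WT held in each of the 22 alternatives, with adjusted p of at most 0.0404. Those of the stem cell genes depended on the libraries and the fit. Without d7_WT_386, 8 members were called, and 7 without d7_WT_370 or without d3_WT_381. Lgr5 was then at -2.57, -2.45 and -2.08, Ascl2 at -3.07, -3.11 and -2.53, and Axin2 at -2.03, -2.12 and -1.76, with adjusted p of 0.0151 to 0.0496. All 3 were also called in the fit of all libraries, Lgr5 and Axin2 by DESeq2, and Lgr5 from lane 1 alone. Smoc2 was called without d7_WT_386 (-1.31, adjusted p = 0.00172) and in no other fit. Over all alternatives the adjusted p ranged from 0.0151 to 0.133 for Lgr5, from 0.0141 to 0.123 for Ascl2, from 0.0156 to 0.113 for Axin2 and from 0.00172 to 0.246 for Smoc2. The call of Rnf43 was lost without d3_WT_352 (adjusted p = 0.0517) or d3_WT_353 (adjusted p = 0.0504), where its adjusted p ranged from 0.00273 to 0.0517 over all alternatives.

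In KO, 2 of the 9 members tested fell from day 3 to day 7, against 19.3% of 15568 genes called and 8.83% called lower. The median of the 9 was -0.58 against -0.01 for all genes. Sox9 fell by 1.07 (SE 0.20, adjusted p = 0.00137), which is 2.09-fold, and Znrf3 by 0.58 (SE 0.19, adjusted p = 0.0445). Lrig1 was at -0.51 (SE 0.19, adjusted p = 0.0702), Ascl2 at -0.94 (SE 0.61, adjusted p = 0.331), Axin2 at -0.73 (SE 0.47, adjusted p = 0.323), Lgr5 at -0.59 (SE 0.55, adjusted p = 0.528), Smoc2 at -0.50 (SE 0.39, adjusted p = 0.427), Rnf43 at -0.14 (SE 0.19, adjusted p = 0.661) and Ephb2 at 0.16 (SE 0.08, adjusted p = 0.181). Without the library labelled d3_KO_345, Lrig1 was called (-0.60, adjusted p = 0.0186), as it was without d7_KO_366 (-0.59, adjusted p = 0.0485), within a range of 0.0186 to 0.178 over its alternatives. It was also called in 2 of 8 other settings. The call of Znrf3 was lost without any 1 of d3_KO_349, d3_KO_350, d3_KO_351, d3_KO_385, d3_KO_392, d7_KO_366, d7_KO_367, d7_KO_368, d7_KO_420 and d7_KO_423, with adjusted p of 0.0181 to 0.138 over all alternatives. Znrf3 also lost its call in 2 of 8 other settings. Sox9 kept its call in every fit, with adjusted p of at most 0.00524.

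**Figure D2:**
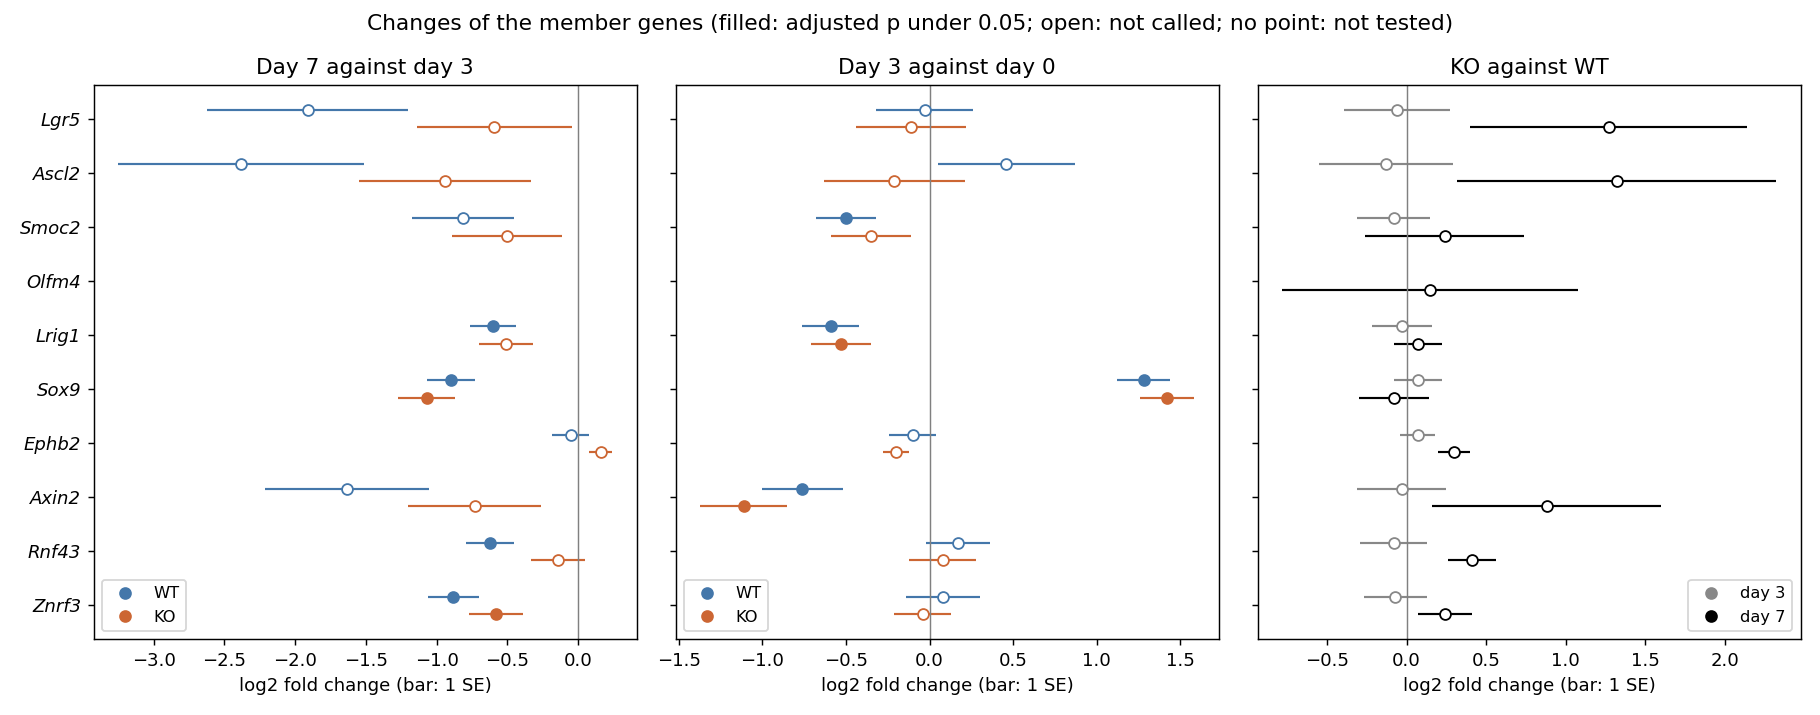
Log2 fold change with 1 SE (x) of each gene (y) between days 7 and 3, between days 3 and 0, and between KO and WT at days 3 and 7; blue is WT and orange KO in the panels on days, grey is day 3 and black day 7 in the panel on genotype, and filled points passed an adjusted p of 0.05. From day 3 to day 7, Ascl2, Lgr5 and Axin2 have the largest estimates in WT (-2.38, -1.91 and -1.63) with the widest bars, and no point of the genotype panel is filled.

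The size of the change from day 3 to day 7 was then compared between genotypes with an interaction term. The estimates, KO minus WT, were 1.47 for Ascl2 (SE 1.07), 1.35 for Lgr5 (SE 0.92), 0.92 for Axin2 (SE 0.77) and 0.49 for Rnf43 (SE 0.27). They were negative for Sox9 (-0.15, SE 0.27) and Olfm4 (-1.35, SE 1.44). None of the 10 members was called by edgeR or by DESeq2, none had an unadjusted p under 0.05, and all adjusted p were 1.00 in every alternative. Of all 16371 genes, 0% were called. The 95% interval for Lgr5 ran from -0.46 to 3.15 and that for Ascl2 from -0.63 to 3.57, so a difference of several-fold was not detectable with this spread. For Sox9 it ran from -0.68 to 0.39.

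KO and WT were compared directly at each day. No member was called at any day, by edgeR or DESeq2, against 0.0335% of 14944 genes at day 0, 0.00647% of 15461 at day 3 and 0.00642% of 15584 at day 7. At day 7 the estimates, KO minus WT, were 1.32 for Ascl2 (SE 1.00, adjusted p = 0.566), 1.27 for Lgr5 (SE 0.87, adjusted p = 0.521) and 0.88 for Axin2 (SE 0.72, adjusted p = 0.590). Rnf43 was at 0.41 (SE 0.15, unadjusted p = 0.0128, adjusted p = 0.313) and Ephb2 at 0.30 (SE 0.10, unadjusted p = 0.0102, adjusted p = 0.306), the members with an unadjusted p under 0.05. Of all 15584 genes tested at day 7, 12.9% had such a p. The estimate was positive for 9 of 10 members, Sox9 being at -0.08, and for 7652 of 15584 genes. Several of these signs were not stable. Olfm4 (0.15, SE 0.93) changed sign in 4 alternatives, down to -1.61, Lrig1 (0.07, SE 0.15) in 1 and Sox9 in 2. Smoc2 (0.24, SE 0.50) went down to 0.01. The median was 0.27 against 0.00 for all genes. The signs of the members are not independent. Over days 3 and 7 (29 libraries, group means removed), Lgr5 correlated with Ascl2, Smoc2 and Axin2 at r of 0.93 to 0.94. The genotypes overlapped for every member. d7_WT_370 and d7_WT_386 had more Lgr5 than d7_KO_367, d7_KO_368, d7_KO_420 and d7_KO_423.

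At day 3 the estimates of the 9 members tested lay between -0.13 (Ascl2) and 0.07 (Sox9), and 0 had an unadjusted p under 0.05. The 95% interval of Lgr5 was -0.70 to 0.57 and that of Sox9 -0.22 to 0.37. At day 0 they lay between -0.22 (Smoc2) and 0.55 (Ascl2), and Axin2 (0.32, SE 0.13, unadjusted p = 0.0272, adjusted p = 0.423) alone had an unadjusted p under 0.05. Of all genes, 1563 of 14944 had one at day 0. A joint fit of days 3 and 7 with day as a covariate also called none of the 10, against 0.0122% of 16371 genes. Ephb2 had the smallest unadjusted p there (0.17, SE 0.08, unadjusted p = 0.0394, adjusted p = 0.214). It was the only member under 0.05, as were 3523 of all 16371 genes. Without the library labelled d3_KO_345 no member was called either. The genotypes are not balanced over mouse numbers at day 3. The libraries numbered from d3_WT_381 to d3_KO_392 had more of the tuft cell markers than the others (values below). Only d3_WT_381 of them is WT, while d3_KO_385, d3_KO_387, d3_KO_388 and d3_KO_392 are KO. The part of this in the comparisons and the interaction that use day 3 was not tested.

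Against untreated mice, Sox9 rose and Axin2 and Lrig1 fell by day 3 in both genotypes. Sox9 rose by 1.28 in WT (SE 0.16, adjusted p = 1.82e-05), which is 2.43-fold, and by 1.42 in KO (SE 0.16, adjusted p = 3.52e-06), which is 2.68-fold. Axin2 fell by 0.76 in WT (SE 0.24, adjusted p = 0.0183) and by 1.11 in KO (SE 0.26, adjusted p = 0.00243). Lrig1 fell by 0.59 in WT (SE 0.17, adjusted p = 0.0113) and by 0.53 in KO (SE 0.18, adjusted p = 0.0225). Smoc2 fell in WT by 0.50 (SE 0.18, adjusted p = 0.0349). That made 4 of 9 members called in WT, against 46% of 17152 genes, and 3 of 9 in KO, against 46.3% of 16010 genes. Those called lower were 3 of 9 in WT, against 25.6% of all genes, and 2 of 9 in KO, against 23.7%, so the shares lay near the background. Lgr5 was at -0.03 (SE 0.29, adjusted p = 0.933) in WT and -0.11 (SE 0.33, adjusted p = 0.812) in KO. Without d0_WT_31, Smoc2 (adjusted p = 0.108) and Axin2 (adjusted p = 0.0596) were not called. Without d0_WT_41, Smoc2 (adjusted p = 0.108) and Lrig1 (adjusted p = 0.0513) were not, and without d0_WT_43 Smoc2 (adjusted p = 0.0815) was not. Smoc2 and Axin2 each also lost the WT call in 1 of 8 other settings. Over all alternatives the adjusted p ran from 0.0155 to 0.343 for Smoc2, from 0.00548 to 0.270 for Axin2 and from 0.00245 to 0.0513 for Lrig1 in WT. In KO, Lrig1 was not called without d0_KO_53 (adjusted p = 0.0558, within a range of 0.00878 to 0.0558). The KO call of Axin2 was lost in 1 of 8 other settings (adjusted p of 7.6e-05 to 0.0708 over all alternatives). Ephb2 in KO, at -0.20 (SE 0.08, adjusted p = 0.0610), was called in 5 of 8 other settings. It was also called without d0_KO_24 (adjusted p = 0.0409, within a range of 0.00184 to 0.259).

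By day 7, 5 of 10 members were lower than in untreated WT mice, against 56.9% of 17428 genes called in either direction and 29.2% called lower. Axin2 fell by 2.40 (SE 0.66, adjusted p = 0.00767), Smoc2 by 1.32 (SE 0.43, adjusted p = 0.0181), Lrig1 by 1.18 (SE 0.13, adjusted p = 7.33e-06), Znrf3 by 0.80 (SE 0.15, adjusted p = 0.000592) and Rnf43 by 0.44 (SE 0.14, adjusted p = 0.0139). The call of Rnf43 was lost without d0_WT_46 (adjusted p = 0.0530, within a range of 0.00461 to 0.0757) and in 2 of 8 other settings. Lgr5 was at -1.95 (SE 0.82, adjusted p = 0.0560) and was not called, although every WT library of day 7 lay below every one of day 0, and 4 of the alternatives called it (adjusted p of 0.0134 to 0.100 over all). Ascl2 was at -1.93 (SE 1.01, adjusted p = 0.119, within a range of 0.0389 to 0.234), called in the fit of all libraries alone. In KO, 3 of 10 fell, against 54.6% of 16367 genes called and 27.3% called lower. There Lgr5 was at -0.69 (SE 0.62, adjusted p = 0.367) and Ascl2 at -1.14 (SE 0.64, adjusted p = 0.147). Axin2 fell by 1.83 (SE 0.51, adjusted p = 0.00752), Lrig1 by 1.04 (SE 0.14, adjusted p = 2.97e-05) and Znrf3 by 0.61 (SE 0.19, adjusted p = 0.0129). Sox9 was at 0.38 (SE 0.21, adjusted p = 0.138) in WT and 0.37 (SE 0.20, adjusted p = 0.133) in KO. Olfm4 was at 2.31 (SE 1.03, adjusted p = 0.0701) in WT, called in 2 of 6 other settings. In KO it was at 0.27 (SE 1.06, adjusted p = 0.847). The share of members called lower was 50% beside 29.2% of all genes in WT, and 30% beside 27.3% in KO. In either direction the shares of members, 50% and 30%, were below the 56.9% and 54.6% of all genes. With 10 members such shares are coarse, and their difference between the genotypes was not tested. The interaction of genotype with the change from day 0 to day 7 called 0 of 10 members by edgeR and by DESeq2, none with an unadjusted p under 0.05, against 0.00531% of 18830 genes. These comparisons share the untreated mice of each genotype. All 4 neutrophil markers also rose from day 0 to day 7 in each genotype, as did 5 of 6 fibroblast markers in WT and 3 of 5 tested in KO, and their part in the changes was not tested.

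Within day 3, the members other than Ephb2 and Olfm4 moved together between mice. Over the 15 libraries of day 3, with the mean of each genotype removed, Pearson's r of log2 CPM with Lgr5 was 0.94 for Rnf43 (Spearman's rho 0.89), 0.92 for Lrig1 (rho 0.92), 0.90 for Ascl2 (rho 0.92), 0.89 for Smoc2 (rho 0.95) and Axin2 (rho 0.91), 0.88 for Znrf3 (rho 0.89) and 0.87 for Sox9 (rho 0.85). In permutation tests within genotype the adjusted p of these r, over 9 relations, ran from 4.5e-05 to 0.000206, and that of rho from 4.5e-05 to 0.000244; the smallest unadjusted p the permutations can give is 1e-05. Ephb2 (r = 0.39, permutation adjusted p = 0.190; rho = 0.22, adjusted p = 0.441) and Olfm4 (r = -0.23, permutation adjusted p = 0.425; rho = -0.27, adjusted p = 0.385) did not pass. Without the pair of libraries farthest from the median of Lgr5, d3_WT_381 and d3_KO_351, r stayed between 0.76 and 0.93 for the 7 genes and was 0.03 for Ephb2. The libraries share the scaling by which CPM was formed. The permutations also treat the mice of a genotype as exchangeable, while the day 3 libraries differed by mouse number. The summed level of 3 tuft cell markers was 33.7 to 59.7 CPM in those numbered from d3_WT_381 to d3_KO_392. It was 8.79 to 22.4 CPM in the others. Lgr5 was 2.19 to 5.67 CPM in the former and 2.81 to 13.1 CPM in the latter. The part of such a difference in these r and p was not tested. At day 7 the WT libraries left a gap in Lgr5 between 0.533 and 4.80 CPM, while those of KO were spread more evenly, and no r was computed for that day alone.

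**Figure D3:**
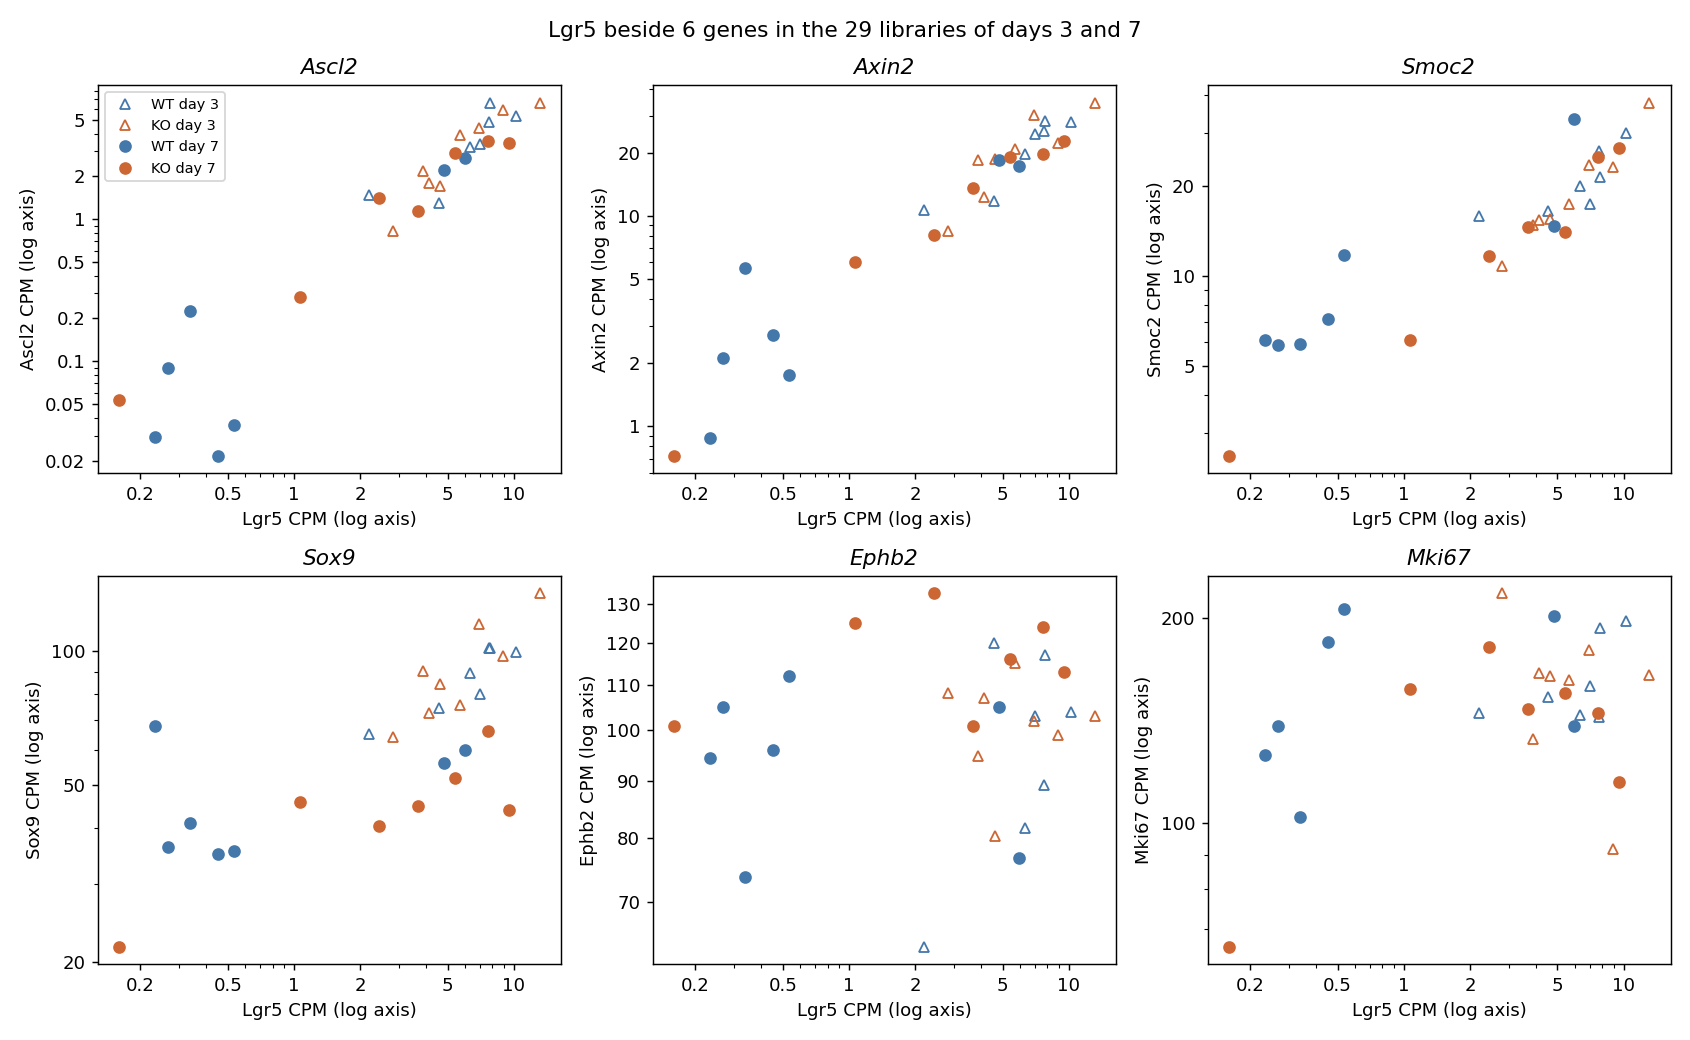
Each panel sets Lgr5 CPM (x, log axis) against the CPM of 1 other gene (y, log axis) in the 29 libraries of days 3 and 7; open triangles are day 3, filled circles day 7, blue WT and orange KO. Ascl2 and Axin2 have their 6 lowest day 7 values in the 6 libraries with Lgr5 below 1 CPM. Ephb2 overlaps, at 73.8 to 112 CPM in those 6 and 76.7 to 133 CPM in the other libraries of day 7. The proliferation gene Mki67 overlaps as well, apart from d7_KO_420 (66.0 CPM).

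Over the 29 libraries of days 3 and 7, with group means removed, the genes most like Lgr5 among 10546 genes with a mean log2 CPM of at least 2 were Smoc2 (r = 0.94), Ephb3 (0.93), Axin2 (0.93), Cnn3 (0.93) and Cdca7 (0.87). Their r over the 15 libraries of day 3 was 0.89, 0.83, 0.89, 0.72 and 0.63. Ephb3 encodes another Eph receptor of the crypt and Cnn3 an actin-binding calponin, and Cdca7 is a MYC target. The r over 29 libraries also draws on the wide range of Lgr5 at day 7. Lrig1 ranked 157th (0.74), Sox9 299th (0.70), Znrf3 414th (0.67), Rnf43 732nd (0.60) and Ephb2 3865th (0.13). Ascl2 was below the level minimum. Ephb3 at day 7 was 7.25, 10.1, 24.6, 29.2, 8.00, 9.78 and 10.4 CPM in the 7 WT libraries in the order given for Lgr5, low in those low in Lgr5, which Ephb2 was not.

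Mki67, a marker of cycling cells, did not follow this split in WT. At day 7 it was 139, 206, 201, 139, 126, 184 and 102 CPM in WT in the order given for Lgr5, and 66.0 to 181 CPM in KO, where d7_KO_420 was lowest. Its r with Lgr5 over the 15 libraries of day 3 was -0.09. Over the 29 libraries of days 3 and 7, with group means removed, it was 0.36, which ranked 2157th of 10546 genes. Of 10 proliferation genes 1 fell from day 3 to day 7 in WT (Plk1, by 0.34, SE 0.11, adjusted p = 0.0484) and 1 in KO (Plk1, by 0.55, SE 0.09, adjusted p = 0.000413), with medians of -0.07 and -0.24.

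The other genes of the pathway and the crypt were taken from a list of 95. In WT, 71 could be tested between days 3 and 7, of which 7 rose and 15 fell (median -0.19). In KO, 73 could be tested, of which 7 rose and 8 fell (median -0.10). The share called was 31% in WT and 20.5% in KO, beside 19.3% of all genes in each, and the share called lower was 21.1% and 11%, beside 8.70% and 8.83% of all genes. None of the list was called between KO and WT at day 7, of 75 tested by edgeR, with 7 at an unadjusted p under 0.05, where 12.9% of all 15584 genes had one.

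Of the ligands and their secretion, 6 of 14 genes could be tested. Porcn, which acylates Wnt proteins, fell by 0.80 in WT (SE 0.19, adjusted p = 0.00859) and by 0.79 in KO (SE 0.23, adjusted p = 0.0251). Wnt11 rose by 0.90 in WT (SE 0.30, adjusted p = 0.0448) and was at 0.64 in KO (SE 0.30, adjusted p = 0.167). All 4 R-spondin genes were too low to be tested.

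Among 16 receptors and coreceptors tested, 4 fell and 1 rose in each genotype. Ror1, a receptor of noncanonical Wnt signals, fell by 2.07 in WT (SE 0.30, adjusted p = 0.000288) and by 2.35 in KO (SE 0.29, adjusted p = 5.68e-05). Its relative Ror2 fell by 1.15 (SE 0.21, adjusted p = 0.00127) and by 0.71 (SE 0.17, adjusted p = 0.00686). Fzd7, a Frizzled receptor of crypt stem cells, fell by 1.22 (SE 0.22, adjusted p = 0.00160) and by 0.74 (SE 0.22, adjusted p = 0.0272). Of the secreted antagonists and their receptors, Kremen2 rose by 0.55 in WT (SE 0.13, adjusted p = 0.00965) and by 0.48 in KO (SE 0.12, adjusted p = 0.0116). Dkk3 rose by 1.34 in WT (SE 0.38, adjusted p = 0.0208) and was at 0.77 in KO (SE 0.29, adjusted p = 0.0706).

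Of the 12 signal transducers tested, 0 were called in WT by edgeR and 1 in KO. Among the nuclear effectors, 3 of 11 fell in WT. Tcf7l1, the TCF factor best known as a repressor, fell by 1.58 in WT (SE 0.27, adjusted p = 0.000835) and by 1.80 in KO (SE 0.18, adjusted p = 1.37e-05). The corepressor Tle2 fell by 0.95 in WT (SE 0.27, adjusted p = 0.0202) and was at -0.52 in KO (SE 0.22, adjusted p = 0.119). Pygo2, a β-catenin cofactor, fell by 0.19 in WT (SE 0.06, adjusted p = 0.0371) and was at -0.11 in KO (SE 0.05, adjusted p = 0.177).

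Of 8 other Wnt targets tested in WT, 2 fell and 1 rose. Ephb3 fell by 1.40 in WT (SE 0.31, adjusted p = 0.00493) and by 0.76 in KO (SE 0.25, adjusted p = 0.0433). Tnfrsf19, a receptor also known as Troy that marks Lgr5 cells, fell by 1.64 in WT (SE 0.53, adjusted p = 0.0399) and was at -1.04 in KO (SE 0.38, adjusted p = 0.0663). Cyclin D1 (Ccnd1) rose by 0.52 in WT (SE 0.14, adjusted p = 0.0187) and by 0.85 in KO (SE 0.22, adjusted p = 0.0117). So the targets did not move one way.

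Of 11 other crypt base and stem genes, 4 fell and 2 rose in WT, and 2 rose in KO. Bmi1, a Polycomb gene linked to reserve stem cells, rose by 0.59 in WT (SE 0.09, adjusted p = 0.000559) and by 0.35 in KO (SE 0.09, adjusted p = 0.0108). Prom1, which encodes CD133, rose by 0.99 (SE 0.17, adjusted p = 0.000848) and by 0.78 (SE 0.17, adjusted p = 0.00418). Rgmb, a BMP coreceptor, fell by 0.75 in WT (SE 0.15, adjusted p = 0.00227) and was at -0.41 in KO (SE 0.15, adjusted p = 0.0758). Of the ligands of Ephb2, Efnb3 fell by 0.93 in WT (SE 0.31, adjusted p = 0.0474) and was at -0.21 in KO (SE 0.27, adjusted p = 0.652).

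**Figure D4:**
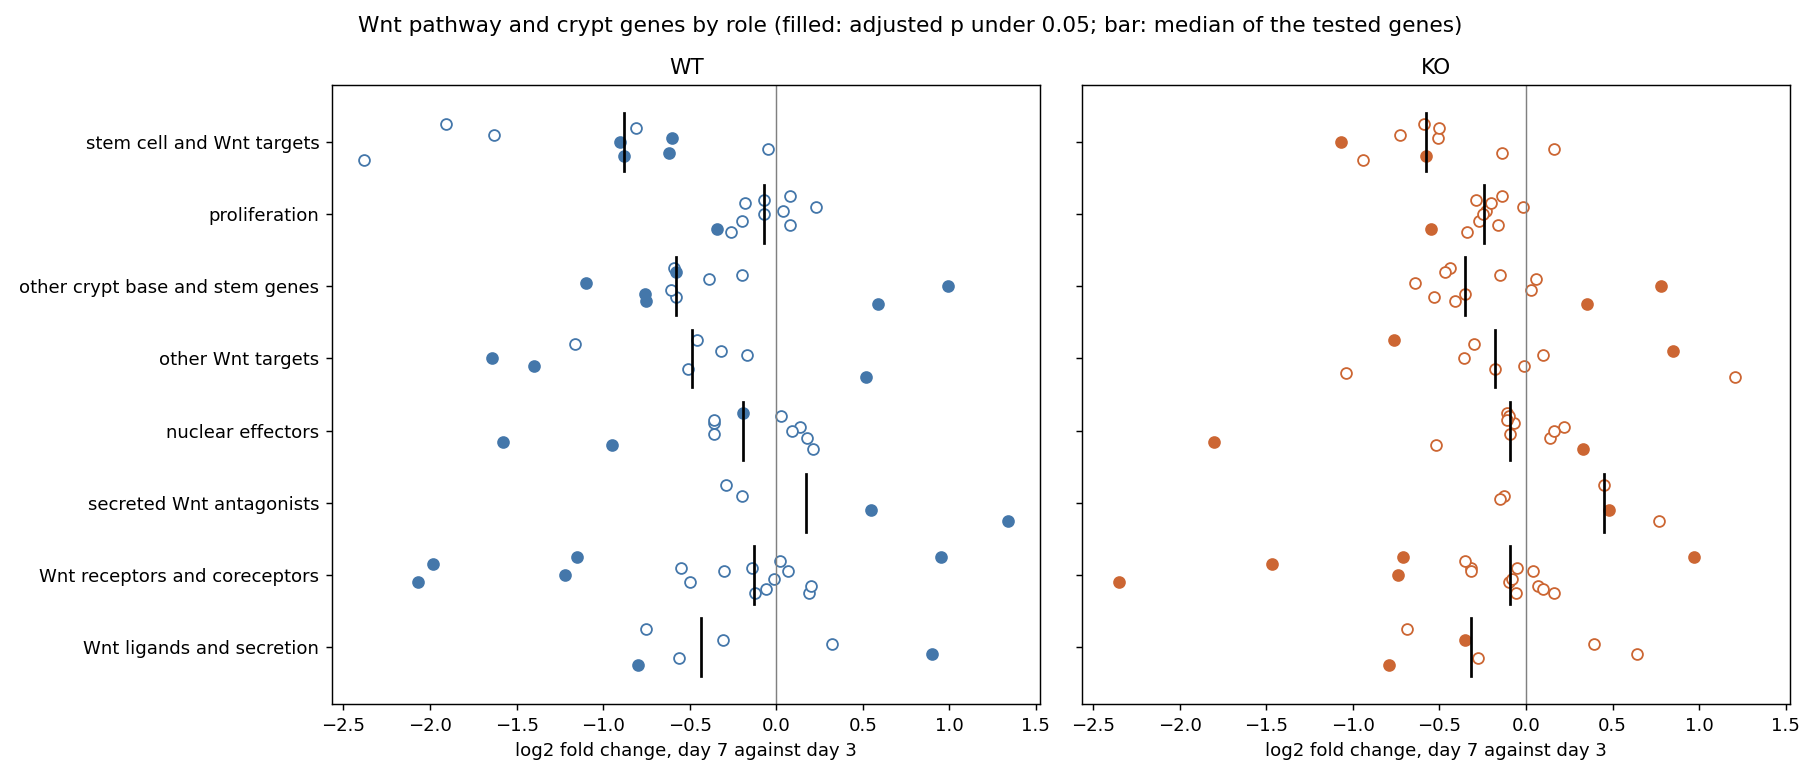
Log2 fold change from day 3 to day 7 (x) of each tested gene by role (y), in WT (blue) and KO (orange); filled points passed an adjusted p of 0.05 and black bars are medians of the tested genes. In WT the bar of the stem cell and Wnt targets lies at -0.88, that of the other crypt base and stem genes at -0.58 and that of proliferation at -0.07.

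Markers of other cells moved with these changes. From day 3 to day 7 all 4 neutrophil and all 3 macrophage markers rose in each genotype, while 0 of 6 fibroblast markers were called by edgeR. Of the T cell markers 2 of 4 rose in WT and 4 of 4 in KO, and of the B and plasma cell markers 3 of 3 and 2 of 3. Goblet cell markers fell, 1 of 7 in WT (Clca1) and 5 of 7 in KO, with medians of -0.22 and -0.62 and no positive estimate. Of 3 tuft cell markers 1 fell in WT and 3 in KO, with medians of -0.93 and -1.11. Their level at day 3 differed by mouse number, which is not balanced between the genotypes. Mature colonocyte markers were mixed: of 6, 1 fell in WT and 2 in KO, with medians of 0.21 and -0.25. Estimates were positive for 3 of them in WT and 2 in KO. Their median summed level was 6810 CPM at day 3 and 11700 CPM at day 7 in WT, and 8440 and 10000 CPM in KO. Of 6 small intestine enterocyte markers tested 2 rose in WT and 1 in KO. Of the 9 epithelial markers, 0 were called in WT and 1 fell in KO. Among the WT libraries of day 7 low in Lgr5, the summed neutrophil level was 653 and 726 CPM in d7_WT_356 and d7_WT_419 but 68.8, 132 and 140 CPM in d7_WT_361, d7_WT_393 and d7_WT_431, and it was 103 and 82.3 CPM in d7_WT_370 and d7_WT_386. The highest and the lowest of these WT levels both lay in libraries low in Lgr5, and a relation of Lgr5 with the neutrophil level was not tested. d7_KO_420 had 1250 CPM. The summed epithelial level was 12700 to 15300 CPM in the 5 low WT libraries and 11900 and 13900 CPM in the other two. The part of other cells in the changes of the members was not tested.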

How the data were processed

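Gene counts of 38 libraries, from 2 lanes each, were used as deposited. Per the submitters' processing notes the authors used Trim Galore, STAR, featureCounts 1.5.2 and GRCm38. Per the file headers the counts came from featureCounts 1.6.2, on read pairs, without strand and without multimapping or overlapping reads. The kit was a stranded mRNA kit with reads of 50 bases. Lanes were summed here (r of log2 values at least 0.989). For 1 listed symbol with 2 rows, the higher was used.

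CPM were scaled by TMM. Tests used edgeR 4.0.16 (R 4.3.3; filterByExpr, quasi-likelihood) on the compared groups alone, and DESeq2 1.42.0 as an alternative, after a check on simulated data. Each library is taken as 1 mouse by its number in the title, and p-values measure the spread between these mice. Intervals are estimates plus or minus 1.96 SE. Correlations used log2 CPM with a prior count of 2, with 100000 permutations. The precision of low genes is set by depth: 3 counts were taken as the floor, which covers counting error only.

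The members and gene lists were chosen with earlier results of these data known. Beside the members and Hk2, up to 3 genes per list were named by the smallest p in WT between days 7 and 3 among those called, and likewise for the genotype comparisons, where only Hk2 was called, at day 0. The 5 genes most like Lgr5 were named by Pearson's r. The CCAAT and GC boxes were added after the TCF/LEF search. Alternatives were other scalings, filters, fits and tests, lane 1 alone, and leaving out libraries.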

Additional observations from a re-analysis of the deposited data

Results flagged for a closer look

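Within 60 sets of 4 to 8 libraries (1 gene in 1 group), 5 held a library far from the others of its group by Dixon's criterion, where chance gives about 1 in 20. Ascl2 was 4.12 CPM in d0_WT_31, against 2.15 to 2.32 CPM in the others. Olfm4 was 4.06 CPM in d7_KO_420, against 0.0402 to 0.387 CPM. Rnf43 was 40.2 CPM in d7_WT_370, against 24.2 to 29.8 CPM. Smoc2 was 37.8 CPM in d3_KO_351, against 10.8 to 23.5 CPM, and 33.3 CPM in d7_WT_386, against 5.89 to 14.7 CPM. d7_WT_370 and d7_WT_386 are the WT libraries of day 7 that also had the most Lgr5, and d7_KO_420 had the least.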

How the results depend on the processing

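No paired analysis was possible because the mouse numbers are not shared between groups. Of 21 called member results none changed sign in any alternative, and 8 lost their call in at least 1. The 58 member results on genotype and its interactions were called in no alternative. For both interactions, the joint fit of days 3 and 7 and the changes from day 0, only libraries of day 0 or d3_KO_345 were left out. How those results depend on single libraries of day 7 was therefore not examined. Of 93 results not called, 29 changed sign in at least 1 alternative. The cause of these changes was not tested. In the fit of all libraries, 8 members were called between days 7 and 3 in WT, 4 in KO, Olfm4 (higher) among both, and 2 between days 3 and 0 in WT. Scaled to epithelial genes, 1 was called between days 7 and 3 in KO, and the median of all genes moved to -0.20 to -0.30 against day 0, where Ephb2 was then called lower in WT at day 7 (-0.42) and KO at days 3 (-0.50) and 7 (-0.32). Leaving out 1 library (97 fits) gave 3 to 8 members in WT and 1 to 3 in KO between days 7 and 3, and 2 to 4 between days 3 and 0 in WT. Counts of all genes ranged from 0 to 177 (KO against WT, day 0), 0 to 2 (day 3), 0 to 83 (day 7) and 0 to 555 (days 3 and 7), from 0 to 174 for the interaction from day 0, and stayed at 0 for that from day 3. They ranged from 2323 to 4297 (WT) and 2470 to 3525 (KO) between days 7 and 3, from 5618 to 11477 and 5996 to 10557 between days 3 and 0, and from 7312 to 13423 and 7136 to 12393 between days 7 and 0. Depth limits Olfm4 and, at day 7, Ascl2.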
